A study of Mus musculus with 8 samples.

Results

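G1 cyclins and their kinases decide whether a resting cell enters the division cycle. The D cyclins Ccnd1, Ccnd2 and Ccnd3 bind Cdk4 or Cdk6, the E cyclins Ccne1 and Ccne2 bind Cdk2, and both kinds of kinase phosphorylate the retinoblastoma protein Rb1, which otherwise holds E2f1 and its relatives inactive on the genes of DNA replication. Adult β-cells divide rarely, and in the mouse Ccnd2 and Cdk4 are known to be needed for the growth of β-cell mass after birth. These 10 genes were taken by their Ensembl identifiers from the 53012 genes of the islet RNA-seq table, and each of the 10 passed the filter on low counts.

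Islets of 4 βIgf1r mice (labelled CTRL) and 4 βIgf1rKD mice (labelled KD) were sequenced, each animal on its own, at the age of 17 months. All 8 mice were Igf1r flox/flox. The βIgf1rKD mice carried Ins1-CreERT2 on one allele (Ins1-CreERT2+/-) and had been injected with tamoxifen in corn oil, 0.075 mg/g on each of 5 days, whereas the βIgf1r mice were Ins1-CreERT2-/- and received corn oil. Islets were taken 7 days after the last injection, both groups held males and females, and the sex of each mouse is not among its labels. The deletion, the Cre gene and tamoxifen came together in the same 4 animals, so their parts cannot be told apart, and the Cre is driven in β-cells whereas whole islets were measured. The methods describe the Cre driver as a rat insulin promoter and the genotype names Ins1. Estimated counts per mouse summed to between 21634080 and 42391328. The 10 β-cell markers of the islet summed to 146704 to 203501 CPM (counts relative to the scaled library total) in βIgf1r and 127748 to 188208 CPM in βIgf1rKD mice. Acinar enzyme genes, which mark the exocrine pancreas around the islets, ranged from 16210 to 160245 CPM in βIgf1r and from 35592 to 197877 CPM in βIgf1rKD mice. In βIgf1r islets the targeted gene Igf1r was at 53.6 ± 7.21 CPM and in βIgf1rKD islets at 50.7 ± 5.0 CPM (SD, n = 4 each; exact permutation p = 0.543), with overlapping mice. These counts run over the whole gene and all islet cells, and they do not separate the groups by their target.

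Cdk4 and Cdk6, which can serve the same D cyclins, differed widely in level, and their promoters are shown for this reason. RefSeq windows of the 250 bases before a start site were at hand for 6 of the 10 genes (Ccnd3, Ccne1, Cdk2, Cdk4, Cdk6 and E2f1). Below are the parts of the Cdk4 and Cdk6 windows up to the next annotated exon, on the plus strand of GRCm38, at chr10:127063285-127063533 and chr5:3343643-3343731, with CACGTG, the E-box recognised by MYC and related factors, in capitals. The RefSeq start of Cdk6 lies inside the Cdk6 gene as GENCODE draws it, downstream of another annotated start.
Cdk4: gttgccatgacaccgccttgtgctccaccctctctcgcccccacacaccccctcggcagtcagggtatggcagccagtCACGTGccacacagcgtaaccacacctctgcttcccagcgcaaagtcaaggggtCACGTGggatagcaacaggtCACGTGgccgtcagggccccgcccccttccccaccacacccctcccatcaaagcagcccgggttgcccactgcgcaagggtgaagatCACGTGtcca
Cdk6: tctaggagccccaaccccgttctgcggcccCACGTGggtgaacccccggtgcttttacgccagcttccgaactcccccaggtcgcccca
The Cdk4 window held CACGTG 4 times, at 172, 118, 98 and 11 bases before the start, a number reached in 0.0213% of the 32851 promoter windows of the mouse. The Cdk6 window held it 1 time and the windows of the other 4 genes not at all, and 6.02% of all windows held at least 1. E2F sites were searched on both strands as TTTCCCGC, TTTCGCGC, TTTGCCGC and TTTGGCGC, which stand in 1.86% of windows. Among these genes the Cdk2 window had 1 match, 140 bases before the start, in a stretch that is also the first exon of a Pmel transcript on the other strand, and the E2f1 window lay inside the annotated exon 1 of E2f1. These are matches of letters and no measure of binding, and their relation to the levels of the genes was not tested.

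Across the 10 genes 1 pair, Ccnd2 and Cdk4, had the highest levels per length. Per kilobase of transcript, Ccnd2 stood at 99.8 ± 15 CPM per kb (SD, n = 8) and Cdk4 at 42.7 ± 4.66 CPM per kb (SD, n = 8), and they ranked first and second in each of the 8 mice. In CPM without length, Ccnd1 was above Cdk4 in M148 (92.5 against 80.4) and M153 (99.5 against 82.3) and below it in the other mice. Ccnd1 followed at 19.2 ± 5.01 CPM per kb (SD, n = 8) and Ccnd3 at 16.2 ± 1.65 CPM per kb (SD, n = 8), an order that held in 5 of 8 mice and, with these transcript lengths, lies within their spread. Rb1, at 5.08 ± 0.751 CPM per kb (SD, n = 8), was above E2f1, at 3.67 ± 1.32 CPM per kb (SD, n = 8), in 7 of 8 mice. Ccne2, Ccne1 and Cdk2 lay close together, at 1.01 ± 0.257, 0.930 ± 0.221 and 0.811 ± 0.217 CPM per kb (SD, n = 8 each). With these lengths the means of neighbours in this order lay within the spread over mice. Within a mouse, Ccne2 was above Ccne1 in 6 of 8 and Ccne1 above Cdk2 in 7 of 8. Cdk6 was the lowest gene in every mouse, at 0.160 ± 0.108 CPM per kb (SD, n = 8). Relative to one another within a mouse, Ccnd2 made up 66.1% to 80.0% of the level of the 3 D cyclins per kb, and Cdk4 99.2% to 99.9% of that of Cdk4 and Cdk6. Lengths in these values and shares were those of the protein-coding transcript with the longest coding sequence. With all exons of a gene joined as its length, Rb1 and Ccnd3 exchanged ranks and the other 8 genes kept theirs, but some levels moved much more than others. Ccnd3 then stood at 3.91 CPM per kb, beside Rb1 at 3.93 and far below Ccnd1 at 15.2, and Cdk2 at 0.314 stood further below Ccne1 at 0.699, so the closeness of Ccnd1 to Ccnd3 and of Ccne1 to Cdk2 depends on the length used.

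**Figure D1:**
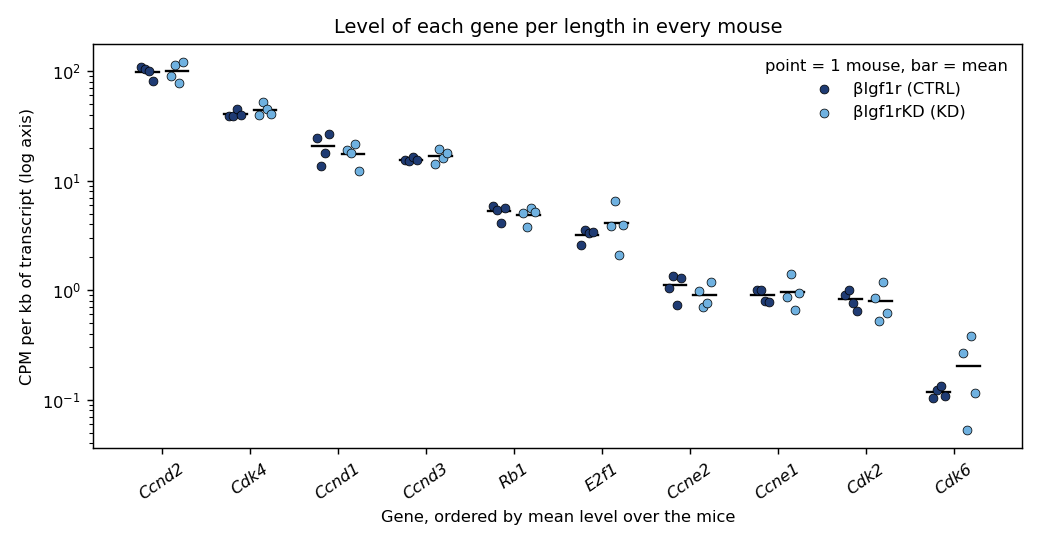
CPM per kb of transcript (log axis) of the 10 genes in each mouse, with dark points for βIgf1r, light points for βIgf1rKD and a bar for the mean of each group. Ccnd2 (78.2 to 120.4 CPM per kb) and Cdk4 (39.1 to 52.5 CPM per kb) lie above all other genes, Cdk6 lies lowest, and the points of the groups overlap for every gene.

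To ask whether the βIgf1rKD islets differed in these genes, edgeR's quasi-likelihood test was run on the 15474 genes that passed the filter. None of the 10 genes passed the test. The fold change was positive for 6 and negative for 4 of them, as it was positive for 52.3% of all genes. Of the 10, 0 had an unadjusted p under 0.05, where 4.12% of all genes tested did, and 0 an adjusted p under 0.05, where 0% did. Among the 10, the smallest unadjusted p was 0.156 and the smallest Benjamini-Hochberg adjusted p 0.987. The mice of the groups overlapped for all 10 genes, and they did not overlap for 2.22% of genes tested. The median log2 fold change was 0.069 for the 10 genes and 0.0080 for all genes. DESeq2 and limma-voom likewise called 0 of the 10 at either threshold, while over all genes they called 8 and 1 at an adjusted p under 0.05.

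**Figure D2:**
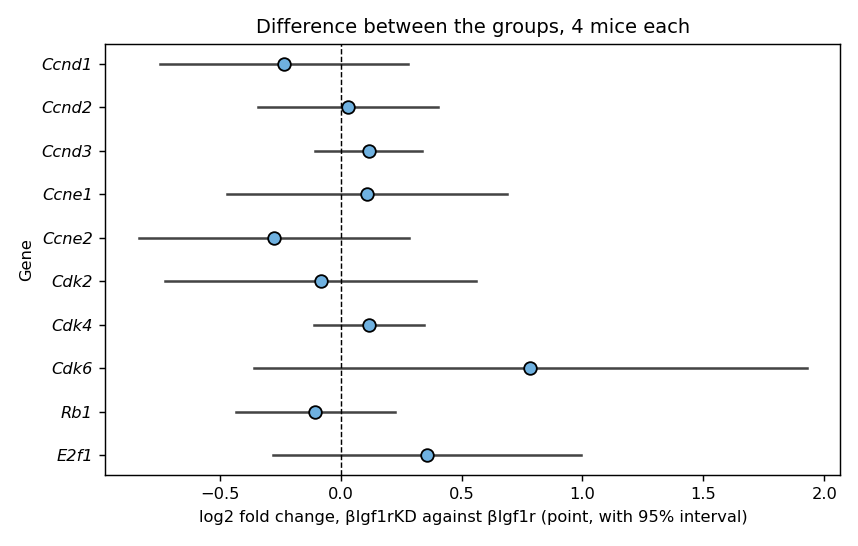
Log2 fold change of βIgf1rKD against βIgf1r islets (x axis) for each of the 10 genes (y axis), with 95% intervals from edgeR's quasi-likelihood fit of 4 mice against 4. Every interval spans 0, the narrowest being that of Ccnd3 (-0.10 to 0.34) and the widest that of Cdk6 (-0.36 to 1.93).

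Among the D cyclins, which carry growth signals to the kinases, Ccnd2 (ENSMUSG00000000184, chromosome 6, 127125162 to 127152193, minus strand) was at 685, 658, 641 and 517 CPM in βIgf1r mice M148, M151, M152 and M153 and at 577, 718, 495 and 762 CPM in βIgf1rKD mice M145, M146, M149 and M150. Gene positions here are those of GRCm38. The βIgf1rKD mice held both the highest and the lowest value, around nearly the same mean. The log2 fold change was 0.030 (standard error 0.17, 95% interval -0.34 to 0.40). Ccnd1 (ENSMUSG00000070348, chromosome 7, 144929931 to 144939925, minus strand) was at 92.5, 50.8, 67.3 and 99.5 CPM in βIgf1r and 70.9, 66.4, 81.0 and 45.6 CPM in βIgf1rKD mice, in the same order. Its range was about the same in both groups, and the log2 fold change was -0.23 (standard error 0.23, 95% interval -0.75 to 0.28). Ccnd3 (ENSMUSG00000034165, chromosome 17, 47505051 to 47599691, plus strand) varied least of the D cyclins, between 31.8 and 34.6 CPM in βIgf1r and between 30.0 and 40.7 CPM in βIgf1rKD mice. Its log2 fold change was 0.12 (standard error 0.098).

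Levels of Ccnd1 went partly with endothelial RNA. The 11 endothelial markers summed to 534, 424, 488 and 501 CPM in the βIgf1r mice and to 378, 392, 418 and 390 CPM in the βIgf1rKD mice, and each of the 11 had a lower mean in βIgf1rKD islets, 5 of them at an unadjusted p under 0.05 and 0 at an adjusted one. M148 and M153 had the highest endothelial sums and the highest Ccnd1, whereas M145 and M149, with lower sums than M152, had more Ccnd1 than it. With the endothelial score as a covariate the log2 fold change of Ccnd1 changed sign to 0.55, and its standard error rose from 0.23 to 0.42. The endothelial sums of the groups did not overlap, so this fit can hardly separate the group from endothelial RNA. With Xist as a covariate, which stands for the mix of sexes, the log2 fold change of Ccnd1 shrank to -0.0016. In a bulk library fewer cells of a type and less RNA per cell cannot be told apart, and the part of endothelial cells in Ccnd1 was not tested further.

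Of the catalytic subunits, Cdk4 (ENSMUSG00000006728, chromosome 10, 127063534 to 127067920, plus strand) was at 80.4, 80.2, 93.1 and 82.3 CPM in βIgf1r and 81.2, 108, 91.9 and 83.9 CPM in βIgf1rKD mice. M146 stood above the other 7 mice, which lay between 80.2 and 93.1 CPM. The log2 fold change was 0.12 (standard error 0.10, 95% interval -0.11 to 0.35). Cdk2 (ENSMUSG00000025358, chromosome 10, 128697939 to 128705031, minus strand), the partner of the E cyclins, had 33 to 82 counts and ranged from 1.56 to 2.40 CPM in βIgf1r and from 1.25 to 2.83 CPM in βIgf1rKD mice. Its log2 fold change was -0.083 (standard error 0.29), with the groups overlapping throughout.

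Cdk6 (ENSMUSG00000040274, chromosome 5, 3341485 to 3531008, plus strand), the second partner of the D cyclins, had the largest log2 fold change of the 10 genes and the widest error. It was at 1.20, 1.42, 1.53 and 1.23 CPM in βIgf1r mice, and at 3.04, 0.607, 4.4 and 1.33 CPM in βIgf1rKD mice M145, M146, M149 and M150. M145 and M149 lay above all βIgf1r mice, M146 below all of them and M150 among them, from 17 to 101 counts per mouse over both groups. The log2 fold change was 0.79 (standard error 0.51, 95% interval -0.36 to 1.93, adjusted p = 0.987). It was 1.1 without M146 (edgeR unadjusted p = 0.0160, adjusted p = 0.807), 0.28 without M149, and 0.33 by limma-voom. M149 and M145 had the highest summed acinar markers, 197877 and 176419 CPM, and M146 the lowest of its group, 35592 CPM. In βIgf1r mice these sums ran from 16210 CPM (M148) to 160245 CPM (M152), while Cdk6 stayed between 1.20 and 1.53 CPM. M148 and M151 (27753 CPM) had lower acinar sums than M146 but more Cdk6. All 12 acinar markers had a higher mean in βIgf1rKD islets, 0 of them at an unadjusted p under 0.05. With the acinar score as a covariate the log2 fold change of Cdk6 was 0.11 (standard error 0.58). M149 also had the highest sums of the leukocyte (297 CPM), fibroblast and pericyte (361 CPM) and duct markers (302 CPM), and which cells carried the Cdk6 RNA was not tested. In the other lists, markers with an unadjusted p under 0.05 were 1 of 10 for β-cells (lower), 1 of 8 for fibroblasts and pericytes (lower), 2 of 10 for leukocytes (higher), and 0 for α-, δ-, PP, duct and Schwann cells. The β-cell marker was Ins1, the gene named in the Cre genotype. Ins1 was at 41092 ± 7908 CPM in βIgf1r and 21699 ± 4567 CPM in βIgf1rKD islets (SD, n = 4 each; edgeR unadjusted p = 0.0204, adjusted p = 0.987). Its groups did not overlap, as for 2.22% of all genes, and the reason was not tested.

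**Figure D3:**
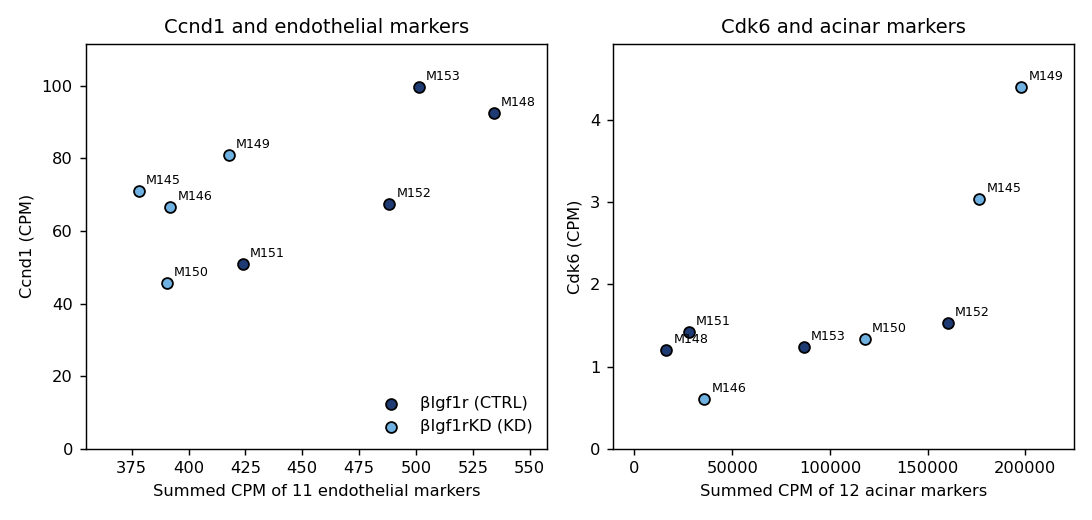
Left, Ccnd1 (CPM) against the summed CPM of 11 endothelial markers, and right, Cdk6 (CPM) against the summed CPM of 12 acinar markers, 1 point per mouse. M148 and M153 are highest in both left-hand measures, and M145 and M149 in both right-hand measures, while M152, with 160245 CPM of acinar markers, had 1.53 CPM of Cdk6.

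The E cyclins, which act with Cdk2 at the step into DNA replication, were scarce, with 30 to 78 counts for Ccne1 (ENSMUSG00000002068, chromosome 7, 38097984 to 38107534, minus strand) and 53 to 144 for Ccne2 (ENSMUSG00000028212, chromosome 4, 11191351 to 11204779, plus strand). Ccne1 was at 2.0, 2.0, 1.60 and 1.56 CPM in βIgf1r and 1.73, 2.78, 1.31 and 1.90 CPM in βIgf1rKD mice. The highest and the lowest value again belonged to M146 and M149, and the log2 fold change was 0.11 (standard error 0.26). Ccne2 was at 3.11, 4.07, 2.21 and 3.89 CPM in βIgf1r and 2.95, 2.11, 2.31 and 3.55 CPM in βIgf1rKD mice, which gave a log2 fold change of -0.28 (standard error 0.25). M146 had the least Ccne2 of all mice and the most Ccne1.

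Downstream of the kinases, Rb1 (ENSMUSG00000022105, chromosome 14, 73183673 to 73325822, minus strand) was at 27.3, 25.2, 19.2 and 26.4 CPM in βIgf1r and 23.8, 17.6, 26.0 and 23.9 CPM in βIgf1rKD mice. M152 and M146 lay below the other 6 mice, 1 from each group, and the log2 fold change was -0.10 (standard error 0.15, 95% interval -0.43 to 0.22). E2f1 (ENSMUSG00000027490, chromosome 2, 154559407 to 154569892, minus strand) was at 7.11, 9.68, 9.11 and 9.29 CPM in βIgf1r and 10.6, 17.9, 5.75 and 10.7 CPM in βIgf1rKD mice. M145, M146 and M150 lay above every βIgf1r mouse and M149 below every one. The log2 fold change was 0.36 (standard error 0.28, 95% interval -0.28 to 1.0). Without M149 it was 0.57 (edgeR unadjusted p = 0.0217, adjusted p = 0.9999), and without M146 it was 0.041. With Xist as a covariate, for the mix of sexes, the log2 fold change of E2f1 was 0.051 (standard error 0.29). Genes on the opposite strand overlap Rb1 (Lpar6 and Rcbtb2), Cdk4 (Tspan31), Cdk2 (Pmel), Ccne2 (Ints8), Ccnd3 (Bysl), Ccnd1 (LTO1) and, as antisense transcripts, Ccnd2 and Cdk6, and Gm17233 overlaps Rb1 on the same strand. The libraries were stranded, but the strand setting of the counting is not given in the sources used here.

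The 10 genes often spread more among the βIgf1rKD than among the βIgf1r mice. For 8 of the 10 genes the range of log2 CPM was wider in βIgf1rKD islets, against 51.7% of all genes tested. M146 formed an end of that range for all of these genes but Ccnd2. The genes were measured in the same mice, so they are not independent cases. Mouse M146 had the highest level of 4 genes (Ccnd3, Ccne1, Cdk4 and E2f1) and the lowest of 4 (Ccne2, Cdk2, Cdk6 and Rb1), so that it was at an end for 8 of 10 genes, against 37.1% of all genes. M149 was at an end for 5 of 10, against 30.8% of all genes. With both mice left out, an alternative chosen after seeing the data, 0 of the 10 genes had an unadjusted p under 0.05. The widest spans over all 8 mice were 6.59-fold for Cdk6 and 3.09-fold for E2f1, and the narrowest 1.34-fold for Cdk4 and 1.36-fold for Ccnd3.

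**Figure D4:**
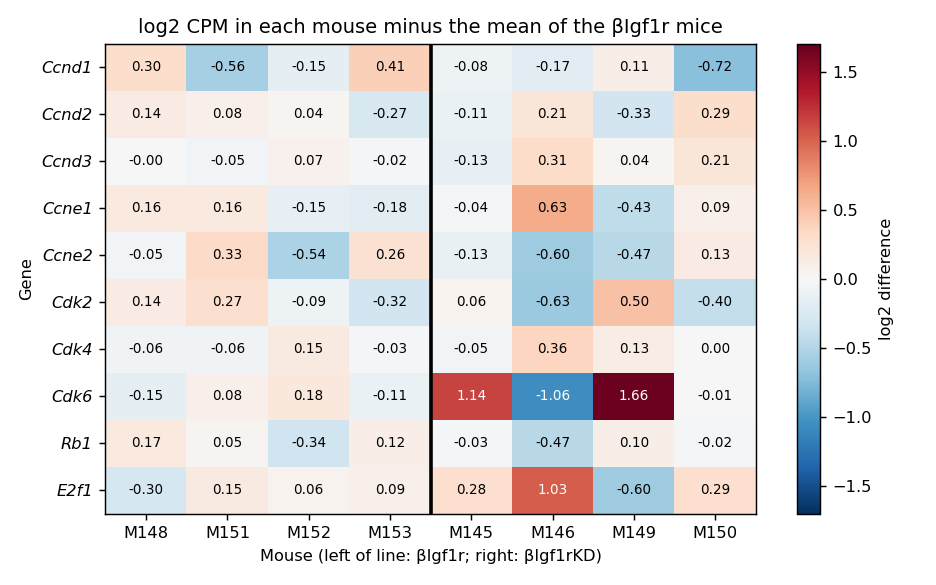
Log2 CPM of the 10 genes (rows) in each mouse (columns) minus the mean of the 4 βIgf1r mice, red for higher and blue for lower. The largest values are those of Cdk6 in M149 (1.66), M145 (1.14) and M146 (-1.06) and of E2f1 in M146 (1.03).

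To compare the partners within a library, 5 log2 ratios of CPM were tested by exact two-sided permutation over the 70 assignments of the mice. The log2 ratio of Ccnd2 to Ccnd1 was 3.05 ± 0.56 in βIgf1r mice and 3.28 ± 0.62 in βIgf1rKD mice (SD, n = 4 each; exact permutation p = 0.600). For Ccnd2 to Ccnd3 it was 4.24 ± 0.18 and 4.15 ± 0.20 (SD, n = 4 each; exact permutation p = 0.543). Ccne1 to Ccne2 gave -0.84 ± 0.37 and -0.51 ± 0.60 (SD, n = 4 each; exact permutation p = 0.457). Cdk4 to Cdk6 gave 5.90 ± 0.11 and 5.57 ± 1.34 (SD, n = 4 each; exact permutation p = 0.686), where log2 CPM spanned 2.72 for Cdk6 and 0.41 for Cdk4 over the βIgf1rKD mice. Rb1 to E2f1 gave 1.47 ± 0.36 and 1.11 ± 0.90 (SD, n = 4 each; exact permutation p = 0.543), and in M146 alone the ratio was below 0, at -0.029. Adjusted over the 5 ratios, the exact permutation p was 0.686 for each. The smallest p that 4 mice against 4 allow is 0.0286.

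Other genes of the pathway, taken from lists, did not pass the test either. Of 11 pocket proteins and E2F partners, the relatives of Rb1 and E2f1 and their DP dimer partners, 10 were tested, 3 with a higher and 7 with a lower mean, and 0 had an unadjusted p under 0.05. Rbl2, the pocket protein p130 of resting cells, had the highest CPM, not corrected for length, with 43.5 ± 2.87 CPM in βIgf1r islets against 43.0 ± 2.07 CPM in βIgf1rKD islets (SD, n = 4 each). The summed level of these 10 genes lay between 193 and 197 CPM in βIgf1r and between 190 and 194 CPM in βIgf1rKD mice. The INK4 inhibitors, which block Cdk4 and Cdk6, had log2 fold changes of -0.27 for Cdkn2a (standard error 0.37), -0.085 for Cdkn2b (standard error 0.15), -0.17 for Cdkn2c (standard error 0.16) and -0.19 for Cdkn2d (standard error 0.20). All 4 means were lower in βIgf1rKD islets, and 0 of the 4 had an unadjusted p under 0.05. Cdkn2a encodes p19Arf as well as p16Ink4a, which a count for the gene does not separate.

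Among the 13 genes of CDK activation and G1 cyclin turnover, 4 had a higher and 9 a lower mean, with 0 at an unadjusted p under 0.05. The highest in CPM was Skp1, listed as Skp1a, a subunit of the SCF ubiquitin ligases, with 96.0 ± 6.17 CPM in βIgf1r islets against 90.7 ± 3.8 CPM in βIgf1rKD islets (SD, n = 4 each). Of 24 E2F target genes of the G1-S step 23 were tested, 16 with a higher and 7 with a lower mean, and their median log2 fold change was 0.051. The highest in CPM, the replication clamp Pcna, was at 26.1 ± 3.24 and 27.8 ± 1.19 CPM (SD, n = 4 each), and 0 of the 23 had an unadjusted p under 0.05. Proliferation markers were near the limit of what could be tested, with 9 of 12 passing the filter and a summed level of 4.31 to 15.9 CPM in βIgf1r and 8.34 to 11.7 CPM in βIgf1rKD mice. Top2a, a DNA topoisomerase of dividing cells, was the highest in CPM at 2.23 ± 1.29 and 2.29 ± 0.762 CPM (SD, n = 4 each), and 0 of the 9 had an unadjusted p under 0.05.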

How the data were processed

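Islet RNA of 4 βIgf1r and 4 βIgf1rKD mice was sequenced from stranded mRNA libraries. The authors deposited an estimated count per Ensembl gene and mouse, not scaled between mice; fastp, kallisto and GRCm38 are listed in the submitters' processing notes, and how transcripts were summed to genes is not given in the sources used here. Symbols (51906 of 53012 identifiers), coordinates and lengths came from GENCODE M21 on GRCm38, and promoters from RefSeq on GRCm38.p6. Counts were rounded, filtered with filterByExpr of edgeR 4.0.16 (minimum count 10, minimum total 15), scaled by TMM and tested by the quasi-likelihood F-test with Benjamini-Hochberg adjustment over 15474 genes. TMM-scaled library sizes gave CPM, with a prior count of 2 for log2 CPM, and a standard error is the fold change divided by the root of F. Alternatives used DESeq2 1.42.0, limma 3.58.1, other filters, RLE factors, covariates and each mouse left out. Scores are mean z-scores of a marker list. Totals of 21634080 to 42391328 counts make counting error small for abundant genes only.

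The 10 genes and the lists were chosen with earlier results of these data known. The other genes named are those with the highest mean CPM of each list, any with an unadjusted p under 0.05, the INK4 genes, and the 3 closest to Ccnd2 and to Cdk4 over the mice. Marker genes are given as lists, apart from Ins1, which the Cre genotype names. The scripts were tested on simulated counts.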

Additional observations from a re-analysis of the deposited data

Results flagged for a closer look

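For the log2 ratio of Ccne1 to Ccne2, mouse M146 of the βIgf1rKD group lay at 0.39 against -0.88 to -0.74 in the other 3 mice of its group, a gap of 0.894 of the group's range. It was the 1 such gap among 32 groups of 4 mice examined, where chance gives about 1.6, or 1 in 20.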

How the results depend on the processing

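No paired analysis was possible because the groups share no mouse numbers. Under all 17 alternatives 0 of the 10 genes and 0 of the other pathway genes had an adjusted p under 0.05. At an unadjusted p, 1 of the 10 genes passed without M146 (Cdk6) and 1 without M149 (E2f1), so that leaving out a mouse gave 0 to 1. Of the other pathway genes 1 passed with the endothelial score (Mki67), 1 with Xist (Cdc25a) and 1 by limma-voom (Cdc25a), and 0 to 3 with a mouse left out, most without M152. In the main fit 4.12% of all genes tested had an unadjusted p under 0.05. The share in each alternative is not given here, so these counts have no background of their own to be read against. Log2 fold changes that changed sign were, with the endothelial score, those of Ccnd1 (0.55), Rb1 (0.076) and E2f1 (-0.044), with Xist those of Ccnd2 (-0.10), Ccne1 (-0.098) and Igf1r (0.023), and without both M146 and M149 that of Cdk4 (-0.025). With a mouse left out they ranged from -0.068 to 0.13 for Ccnd2, from -0.12 to 0.25 for Ccne1, from -0.34 to 0.071 for Cdk2 and from -0.21 to 0.0022 for Rb1. The differences in log2 ratio then ranged from -0.029 to 0.45 for Ccnd2 to Ccnd1, from -0.17 to 0.0053 for Ccnd2 to Ccnd3, from -0.90 to 0.078 for Cdk4 to Cdk6 and from -0.71 to 0.025 for Rb1 to E2f1. The cause was not tested, and the endothelial sums of the groups did not overlap, so that covariate can hardly be separated from the group. Ccnd3, Ccne2 and Cdk6 kept their sign under the 17 alternatives, though Ccne2 was only at -0.022 without both M146 and M149. The size of these and of other fold changes moved by over 1.5 times with a mouse left out. The range was -0.39 (without M151) to -0.092 (without M150) for Ccnd1, 0.045 (M146) to 0.19 (M145) for Ccnd3, 0.027 (M146) to 0.17 (M152) for Cdk4, -0.44 (M150) to -0.16 (M151) for Ccne2, 0.28 (M149) to 1.1 (M146) for Cdk6, 0.041 (M146) to 0.57 (M149) for E2f1, and 0.032 (M146) to 0.46 (M152) for the ratio of Ccne1 to Ccne2. Counts of 17 to 144 limit Cdk6, Cdk2, Ccne1 and Ccne2.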

Other observations

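The genes whose log2 CPM followed Ccnd2 most closely over the 8 mice were Mapt (Pearson r = 0.95, Spearman rho = 0.95), which encodes the microtubule protein tau, Gnao1 (r = 0.94, rho = 0.90), a G protein subunit, and Map3k7cl (r = 0.94, rho = 0.90), at a mean of 0.441 CPM. Closest to Cdk4 were Zbtb45 (r = 0.98, rho = 0.81), Tradd (r = 0.98, rho = 0.79) and Spr (r = 0.98, rho = 0.95). They are the highest of 15474 genes tested, so these values carry no p, and all points share the libraries and their acinar content. Cdk4 was at 108 CPM in M146 and between 80.2 and 93.1 CPM in the other mice. The weight of M146 in the Pearson values of Cdk4 was not tested.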
